A study of Homo sapiens with 12 samples.

Results

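The 34 genes described here encode the enzymes that build cholesterol and fatty acids and the proteins that set their output, and they were listed by name, with earlier results of these data known. Each gene was read from the probe sets listed with its symbol only, and where there were several the one with the highest mean over the 12 arrays was used. On that rule 31 of the 34 were measured, among 19775 genes in all: 16 of 18 in the sterol branch, 8 of 9 in the fatty acid branch and 7 of 7 genes of control and sterol handling. CYP51A1 and FADS1 were listed only on probe sets shared with another symbol, no probe set was listed for FDFT1, and these 3 were not analysed here. All cells were of the human U937 line, which derives from a myeloid cancer and resembles immature monocytes. One group received vehicle (DMSO), and the others JS-K, from which nitric oxide is released inside cells, for 90 min, 4 h or 24 h, with 3 arrays per group. By its title, the study asked how such a prodrug kills cancer cells by way of their redox state. The labels used here give neither the dose of JS-K nor the length of the vehicle exposure, and the replicates are labelled biological with no statement that they came from separate cultures. There is 1 vehicle group for all times, so the 3 comparisons with vehicle share its arrays, and time in culture cannot be told apart from JS-K.

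Animal cells make cholesterol from acetyl-CoA through mevalonate, isoprenoid diphosphates, squalene and lanosterol, and make fatty acids from the same acetyl-CoA through malonyl-CoA. Both routes are switched on by SREBP transcription factors, which are made as precursors in the membrane of the endoplasmic reticulum. When sterols are scarce, the escort protein SCAP carries the precursors to the Golgi, where proteases release the active factor. When sterols are plentiful, INSIG proteins hold SCAP back. The product of SREBF2 is known mainly for sterol genes and that of SREBF1 mainly for fatty acid genes, and many genes of both branches are used as readouts of SREBP activity.

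Values are on the log2 scale, as the authors deposited them, so a difference of 1 is a 2-fold change. A level says nothing about one probe set relative to another. Differences are means of 3 arrays minus means of 3 arrays with the standard error (SE) of the fit, and a gene was said to rise or fall where limma's adjusted p over all 19775 genes was under 0.05. The p-values measure only the spread between these arrays, and fewer transcripts per cell cannot be told apart from fewer cells carrying them. A level under 4 was taken as low signal. All 4 group means of TM7SF2, HSD17B7 and ELOVL6 lay there, and the 28 others had a level of at least 4 in at least 1 group. Control measurements moved with exposure time. Poly-A spikes, bacterial transcripts added before labelling, averaged 3.04 ± 0.05 in vehicle, 3.08 ± 0.06 at 90 min, 7.02 ± 0.15 at 4 h and 8.47 ± 0.05 at 24 h (SD, n = 3), so that only vehicle and 90 min share their spike level. Hybridization spikes averaged 9.96 ± 0.18 in vehicle, 10.03 ± 0.18 at 90 min, 10.21 ± 0.30 at 4 h and 11.70 ± 0.04 at 24 h. The 3′ minus 5′ signal of ACTB, a sign of RNA quality, was 0.80 ± 0.03, 0.83 ± 0.02, 0.96 ± 0.17 and 0.96 ± 0.04 in the same order, and 1.15 on 4 h replicate 2. The part of these in the 4 h and 24 h results was not tested. Array medians were between 2.84 and 2.99 except on 4 h replicate 2 (3.10), which stands apart. It was the lowest 4 h array for most members, among them FASN, ACACA, SCAP, NSDHL, SREBF1, MVK, ACSS2, FADS2, IDI1 and SCD. For others it was not, and for INSIG1 and MSMO1 it was the highest. Of 7 measured myeloid markers, 5 were above 4 on all arrays, among them LYZ and ITGB2, while MPO and FCGR1A were under 4 on all. Of 13 measured markers of T, B, erythroid, epithelial and fibroblast cells, 12 were under 4 on all arrays and COL1A1 was not (4.74 to 5.80).

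After 90 min of JS-K, 24 of the 31 genes had fallen against vehicle and none had risen. Of all genes, 9.64% were called in that comparison, 5.62% lower and 4.03% higher. At 4 h 25 of the 31 had fallen and none had risen, against 16.6% and 23.9% of all genes (40.6% in either direction). At 24 h 21 were lower and 4 higher than in vehicle, against 18.9% and 17.8% of all genes (36.7% in either direction). Of the 19775 genes, 9551 had a mean of at least 4, so many genes behind these shares give low signal. Most members do not, and shares among genes of like level were not taken. All 3 JS-K arrays lay below all 3 vehicle arrays for 26 members at 90 min, 25 at 4 h and 22 at 24 h, and above them for 2, 2 and 6. Among all genes, 14.1% lay below and 12.9% above at 90 min (26.9% in all). These shares were 18.9% and 51.3% at 4 h (70.2% in all), and 21.7% and 60.6% at 24 h (82.3% in all). By limma's unadjusted p under 0.05 the counts of higher members were 0 at 90 min and 1 at 4 h, where 1510 and 7996 of all 19775 genes were higher. The median difference of the 31 genes was −0.83 at 90 min, −1.22 at 4 h and −0.59 at 24 h, where the median of all genes was 0.01, 0.06 and 0.06. With array medians subtracted, the all-gene median turned to −0.04 at both 4 h and 24 h, so the excess of all genes above vehicle at these times depends on the scaling. Changes of at least 2-fold made up 13 of the falls at 90 min, 17 at 4 h and 9 at 24 h, and none of the 4 rises. Among all 19775 genes, 156 fell as far at 90 min, 552 at 4 h and 1402 at 24 h, and 914 rose as far at 24 h.

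**Figure D1:**
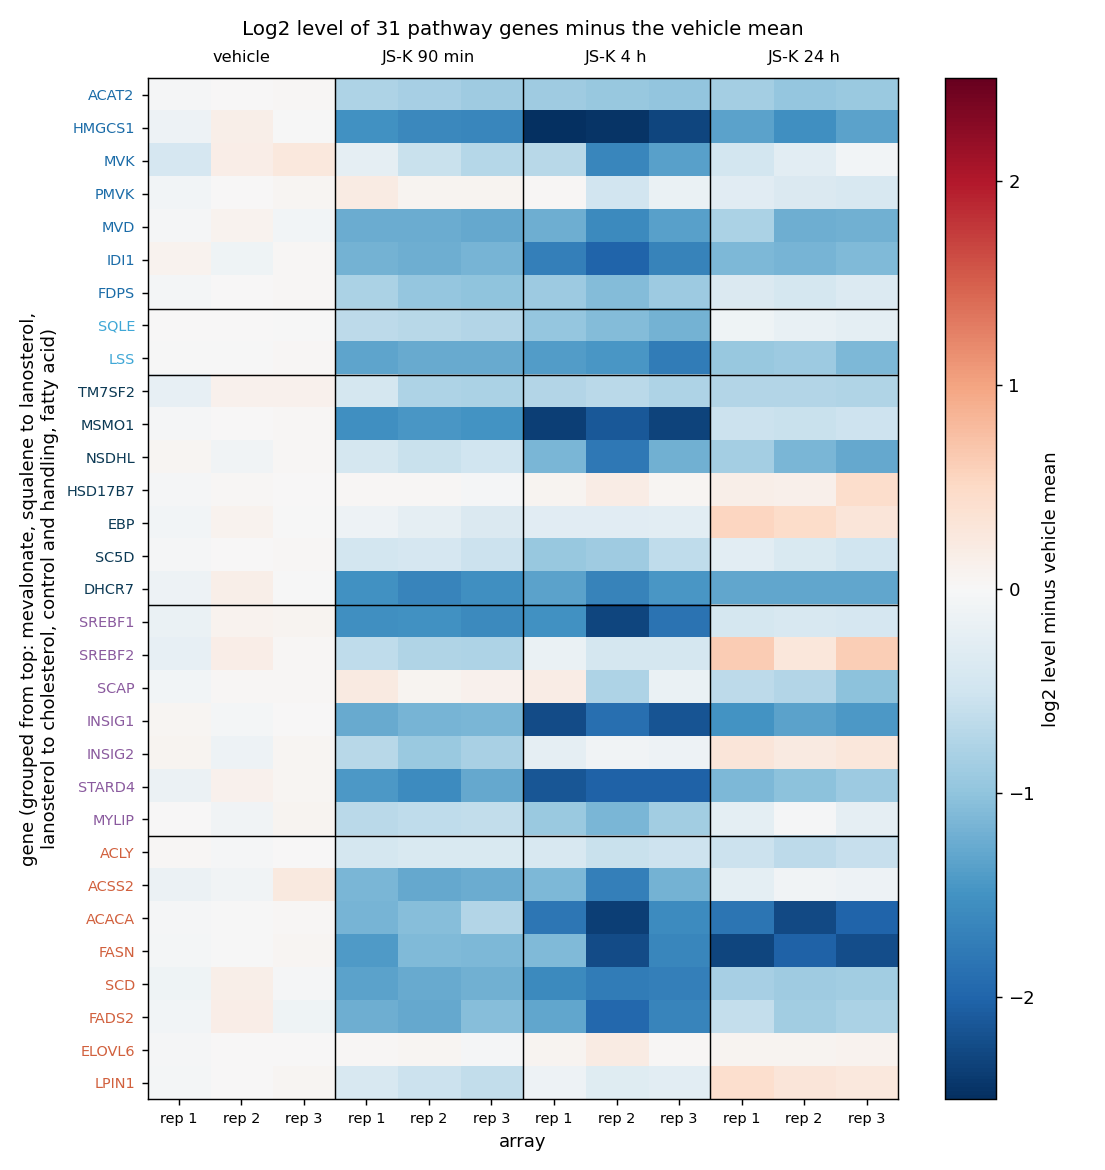
Log2 level of each of the 31 genes on each of the 12 arrays minus that gene's mean in vehicle (colour scale), with the arrays in columns from vehicle to 24 h and the genes in rows by role. Most rows are blue at 90 min and darkest at 4 h, and most sterol genes are paler at 24 h. Some rows have their lowest mean at 24 h, among them FASN, ACACA, ACLY, SCAP and PMVK.

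The 31 genes followed a few courses. Of them 18 were lower than vehicle at all 3 times. SREBF1, MYLIP and ACSS2 were lower at 90 min and 4 h and did not pass the test at 24 h. SREBF2 and INSIG2 were lower at 90 min, did not pass at 4 h and were higher at 24 h, while LPIN1 was lower at 90 min and 4 h and higher at 24 h. MVK, NSDHL and EBP did not pass at 90 min and were lower at 4 h, and at 24 h NSDHL was lower, EBP higher and MVK not called. PMVK and SCAP were lower at 24 h only. The remaining 2, HSD17B7 and ELOVL6, passed at no time and are low-signal genes. The shares of all genes with each of these courses were not taken. For genes lower at all 3 times that share cannot exceed 5.62%, the share of all genes lower at 90 min.

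The factors themselves changed in different ways. SREBF1 had log2 levels of 6.61, 6.85 and 6.84 in vehicle, 5.24, 5.24 and 5.18 at 90 min, 5.25, 4.47 and 4.92 at 4 h and 6.33, 6.36 and 6.33 at 24 h. All 6 arrays of 90 min and 4 h lay below the 3 vehicle arrays, and the 24 h arrays lay between. The difference from vehicle was −1.55 ± 0.18 at 90 min, −1.88 ± 0.18 at 4 h (adjusted p = 1.05e-05) and −0.42 ± 0.18 at 24 h, where it did not pass (adjusted p = 0.0764). At 24 h against 4 h SREBF1 was higher by 1.46 ± 0.18 (adjusted p = 4.57e-05). The 24 h difference passed with only the 6 arrays of that comparison fitted (adjusted p = 0.00968).

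SREBF2 had log2 levels of 7.49, 7.86 and 7.73 in vehicle, 7.06, 6.94 and 6.93 at 90 min, 7.53, 7.25 and 7.25 at 4 h and 8.34, 7.98 and 8.32 at 24 h. It was below the vehicle arrays on every 90 min array and above them on every 24 h array, and the 4 h arrays overlapped with vehicle. SREBF2 fell at 90 min (−0.72 ± 0.13, adjusted p = 0.0042), gave −0.35 ± 0.13 at 4 h (adjusted p = 0.051) and rose at 24 h (0.52 ± 0.13, adjusted p = 0.00814). Without vehicle replicate 1 the 4 h difference passed (−0.45, adjusted p = 0.0427), as it did without 4 h replicate 1 (−0.44, adjusted p = 0.035). Between 90 min and 24 h its level went up by 1.23 ± 0.13, the largest rise of the 31 genes in that comparison (14 higher and 7 lower, against 14.6% and 15.7% of all genes, 30.3% in either direction). SCAP, the escort, had levels of 8.67, 8.77 and 8.78 in vehicle, 8.97, 8.80 and 8.84 at 90 min, 8.93, 7.98 and 8.57 at 4 h and 8.09, 8.005 and 7.71 at 24 h. Its 24 h arrays were close to 4 h replicate 2, the lowest of the 4 h group, and the other 4 h arrays were near vehicle. SCAP passed only at 24 h (−0.81 ± 0.19, adjusted p = 0.00433), and at 4 h, where it gave −0.25 ± 0.19 (adjusted p = 0.266), it was called lower without 4 h replicate 1 (−0.47, adjusted p = 0.0385).

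The 2 INSIG genes parted. INSIG1, itself a well-known SREBP target, had levels of 13.06, 12.96 and 13.02 in vehicle, 11.75, 11.86 and 11.88 at 90 min, 10.77, 11.12 and 10.86 at 4 h and 11.51, 11.68 and 11.57 at 24 h. No JS-K array reached the vehicle range, and the 3 lowest values were those at 4 h. INSIG1 was lower, with differences from vehicle of −1.19 ± 0.08 at 90 min, −2.10 ± 0.08 at 4 h and −1.43 ± 0.08 at 24 h (adjusted p = 2.96e-06, 8.13e-09 and 3.81e-08). That is a level 2.27-fold, 4.28-fold and 2.69-fold lower than in vehicle. INSIG2, the second INSIG protein, had levels of 9.04, 8.84 and 9.01 in vehicle, 8.27, 8.03 and 8.16 at 90 min, 8.73, 8.87 and 8.83 at 4 h and 9.26, 9.19 and 9.24 at 24 h. Its 90 min arrays lay below and its 24 h arrays above all vehicle arrays. INSIG2 fell at 90 min (−0.81 ± 0.08, adjusted p = 7.46e-05), rose from 90 min to 4 h (0.66 ± 0.08, adjusted p = 0.000309) and was higher than vehicle at 24 h (0.27 ± 0.08, adjusted p = 0.0247). That last call ended without vehicle replicate 2 (adjusted p = 0.0982), 24 h replicate 1 (0.0737) or 24 h replicate 3 (0.0652) and with array medians subtracted (0.17, adjusted p = 0.174).

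Both genes of sterol handling fell early. STARD4, a carrier that moves cholesterol between membranes, had levels of 9.94, 10.19 and 10.14 in vehicle, 8.65, 8.52 and 8.81 at 90 min, 7.96, 8.06 and 8.06 at 4 h and 8.97, 9.07 and 9.17 at 24 h. Each 4 h array was below every 90 min array, and each 24 h array lay between those at 90 min and in vehicle. The differences from vehicle were −1.43 ± 0.10, −2.06 ± 0.10 and −1.02 ± 0.10 at 90 min, 4 h and 24 h (adjusted p = 1.87e-06, 3.3e-08 and 2.49e-06). MYLIP, a ubiquitin ligase gene known as a target of the sterol-sensing LXR receptors whose product marks lipoprotein receptors for breakdown, averaged 9.33 ± 0.08 in vehicle, 8.68 ± 0.03 at 90 min, 8.35 ± 0.14 at 4 h and 9.16 ± 0.12 at 24 h. MYLIP fell at 90 min and 4 h (−0.65 ± 0.09 and −0.98 ± 0.09, adjusted p = 0.000641 and 9.01e-06). At 24 h its difference was −0.17 ± 0.09 (adjusted p = 0.138), but the mean of its 6 probe sets was called lower (−0.52, adjusted p = 0.00115).

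**Figure D2:**
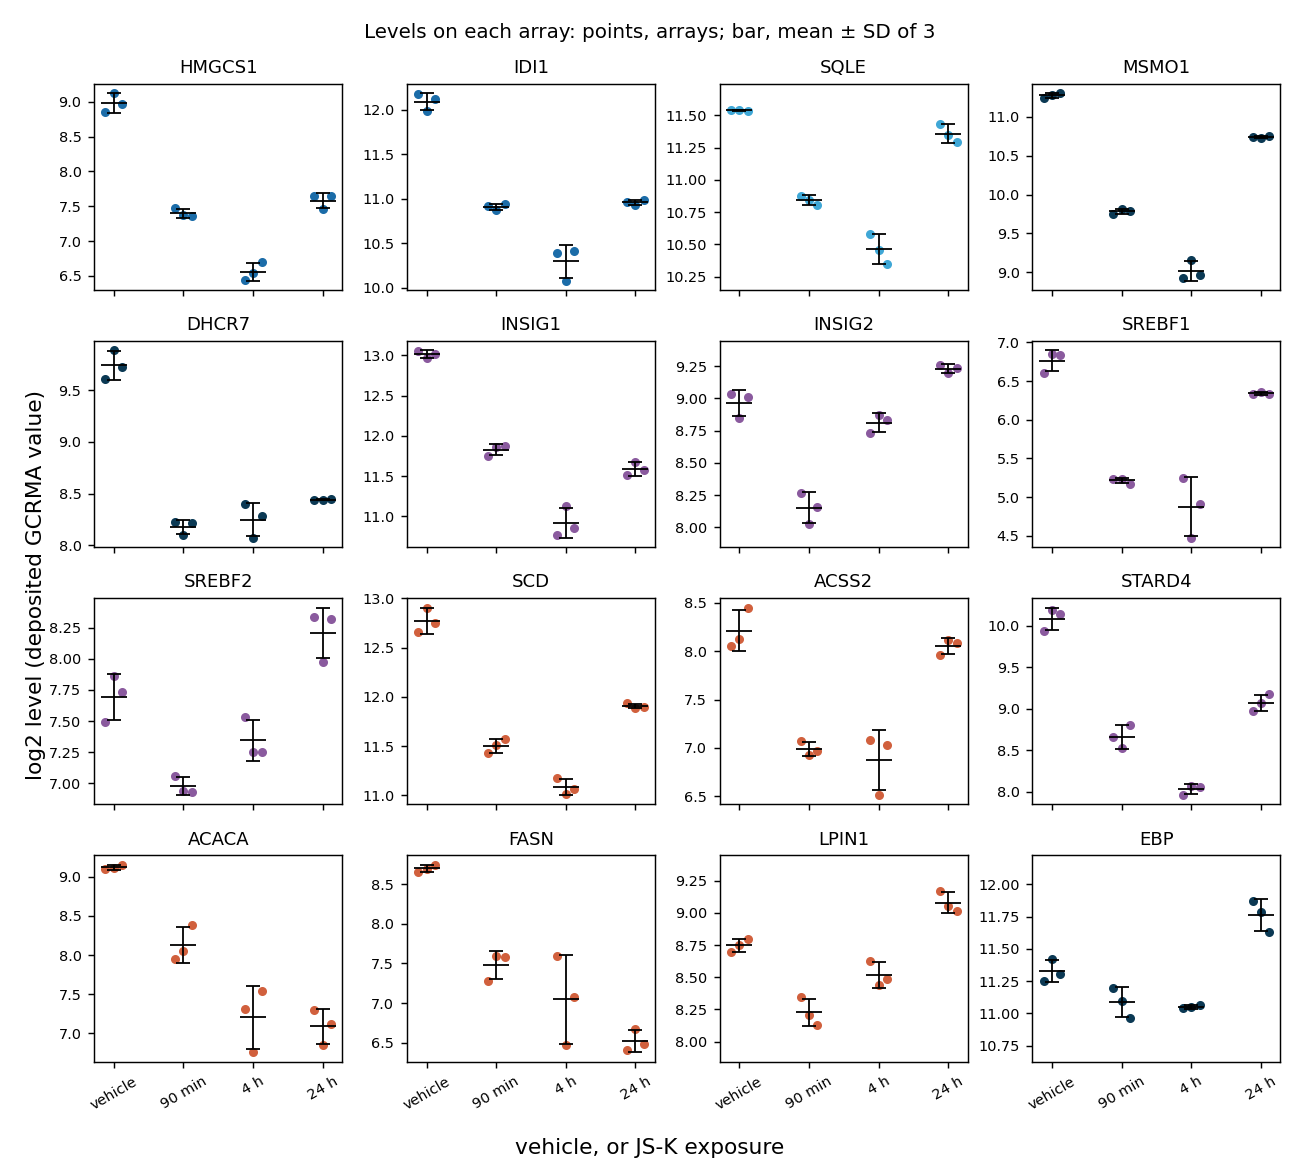
Log2 level on each array (points) with the mean ± SD of 3 arrays (bars) for 16 genes, from vehicle to 24 h of JS-K, each panel on its own scale. HMGCS1, IDI1, MSMO1, INSIG1, SCD and STARD4 are lowest at 4 h and higher at 24 h, while FASN and ACACA have their lowest means at 24 h and SREBF2, INSIG2, LPIN1 and EBP end above vehicle.

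Promoters of SREBF2, HMGCS1, MSMO1, INSIG1 and SCD are shown here. After SREBF2, these are 1 leading gene each of the mevalonate steps, the late sterol steps, the control genes and the fatty acid branch. The leading genes were lower than vehicle at all 3 times, while SREBF2 was lower at 90 min and higher at 24 h. The promoters run from 250 bases before to 50 after the RefSeq start on GRCh38.p14. Capitals mark TCACNCCAC, a form of the sterol regulatory element, and CCAAT, the motif of the factor NF-Y, a known partner of SREBP, on either strand (CCAAT reads ATTGG on the opposite strand).
SREBF2 (chr22:41832855-41833154, plus strand): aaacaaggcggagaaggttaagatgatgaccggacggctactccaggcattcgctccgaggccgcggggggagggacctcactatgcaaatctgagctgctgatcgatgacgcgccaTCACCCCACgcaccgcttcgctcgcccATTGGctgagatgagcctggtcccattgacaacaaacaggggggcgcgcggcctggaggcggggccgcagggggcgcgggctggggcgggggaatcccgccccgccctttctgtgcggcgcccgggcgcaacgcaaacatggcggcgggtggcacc
HMGCS1 (chr5:43313363-43313662, minus strand): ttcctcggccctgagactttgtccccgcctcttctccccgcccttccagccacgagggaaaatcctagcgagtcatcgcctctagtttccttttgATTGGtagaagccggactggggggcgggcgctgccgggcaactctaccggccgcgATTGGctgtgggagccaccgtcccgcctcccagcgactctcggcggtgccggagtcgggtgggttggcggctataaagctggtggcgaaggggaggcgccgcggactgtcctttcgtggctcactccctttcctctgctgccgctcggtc
MSMO1 (chr4:165327419-165327718, plus strand): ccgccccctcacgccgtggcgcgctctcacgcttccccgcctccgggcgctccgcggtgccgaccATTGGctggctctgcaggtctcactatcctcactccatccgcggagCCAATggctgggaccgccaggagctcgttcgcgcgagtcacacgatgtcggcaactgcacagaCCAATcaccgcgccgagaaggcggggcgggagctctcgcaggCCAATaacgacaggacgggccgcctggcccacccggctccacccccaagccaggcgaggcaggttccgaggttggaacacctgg
INSIG1 (chr7:155297628-155297927, plus strand): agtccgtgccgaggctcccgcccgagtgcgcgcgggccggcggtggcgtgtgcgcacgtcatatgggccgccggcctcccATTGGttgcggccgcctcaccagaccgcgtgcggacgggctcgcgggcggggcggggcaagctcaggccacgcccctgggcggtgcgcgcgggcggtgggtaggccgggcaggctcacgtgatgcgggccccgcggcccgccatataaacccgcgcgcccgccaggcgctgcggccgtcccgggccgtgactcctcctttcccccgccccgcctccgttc
SCD (chr10:100346983-100347282, plus strand): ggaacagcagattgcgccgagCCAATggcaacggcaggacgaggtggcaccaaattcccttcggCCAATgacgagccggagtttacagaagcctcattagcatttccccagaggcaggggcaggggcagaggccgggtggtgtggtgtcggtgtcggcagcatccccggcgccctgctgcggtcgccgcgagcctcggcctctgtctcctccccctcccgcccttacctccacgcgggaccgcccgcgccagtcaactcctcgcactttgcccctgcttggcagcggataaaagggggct
The SREBF2 promoter holds 1 match to TCACNCCAC, which begins at position −133 from the start, and 1 CCAAT. The other promoters printed have no such match to TCACNCCAC, and hold 2 CCAAT in HMGCS1, 4 in MSMO1, 1 in INSIG1 and 2 in SCD. RefSeq promoters were at hand for 28 of the 31 genes. TCACNCCAC was found in 1 of these 28 (3.57%), against 1.09% of the promoters of 15384 measured genes. CCAAT was found in 19 of 28 (67.9%), against 36.1%, and GGGCGG, the motif of SP1, in 26 of 28 (92.9%), against 58.9%. None of these 3 motifs contains another, and each was searched on both strands. All 7 promoters of the late sterol genes hold a CCAAT, as do 4 of 6 of the mevalonate genes, 4 of 7 of the control and handling genes and 3 of 7 of the fatty acid genes. A match is a match of letters and not a bound site, and genes with the same course, such as HMGCS1 and IDI1, differ in it, as IDI1 has no CCAAT in this window.

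HMGCS1 and IDI1, both of the mevalonate steps, were lower than vehicle at all 3 times. HMGCS1 makes the precursor of mevalonate. Its log2 levels were 8.85, 9.13 and 8.97 in vehicle, 7.47, 7.37 and 7.36 at 90 min, 6.44, 6.54 and 6.70 at 4 h and 7.65, 7.46 and 7.64 at 24 h. The 3 JS-K groups did not overlap with vehicle, and the 4 h arrays were below all others. HMGCS1 was lower, with differences from vehicle of −1.58 ± 0.11 at 90 min, −2.42 ± 0.11 at 4 h and −1.40 ± 0.11 at 24 h (adjusted p = 1.87e-06, 1.78e-08 and 3.75e-07), which made it the 9th largest fall of all 19775 genes at 4 h. IDI1, the isomerase that supplies the activated isoprene unit, had levels of 12.17, 11.98 and 12.12 in vehicle, 10.91, 10.87 and 10.93 at 90 min, 10.39, 10.08 and 10.42 at 4 h and 10.96, 10.92 and 10.99 at 24 h. The 90 min and 24 h arrays of IDI1 lay close together, with the 4 h arrays beneath and the vehicle arrays above. Its differences were −1.18 ± 0.08, −1.79 ± 0.08 and −1.13 ± 0.08 at 90 min, 4 h and 24 h (adjusted p = 3.06e-06, 3.3e-08 and 2.95e-07).

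The other mevalonate genes varied more. ACAT2, the thiolase of the first step, averaged 11.61 ± 0.03 in vehicle, 10.78 ± 0.07 at 90 min, 10.67 ± 0.05 at 4 h and 10.70 ± 0.06 at 24 h. It was lower at each time (−0.83 ± 0.06, −0.94 ± 0.06 and −0.91 ± 0.06, adjusted p = 1.87e-06, 2.51e-07 and 5.52e-08), and none of the 3 comparisons between times was called for it. FDPS, which makes farnesyl diphosphate, averaged 12.74 ± 0.04 in vehicle, 11.81 ± 0.11 at 90 min, 11.77 ± 0.10 at 4 h and 12.35 ± 0.05 at 24 h. FDPS fell at 90 min and 4 h (−0.92 ± 0.07 and −0.97 ± 0.07) and was less far below vehicle at 24 h (−0.38 ± 0.07, adjusted p = 0.000444). MVD, the decarboxylase, averaged 4.78 ± 0.08 in vehicle, 3.53 ± 0.02 at 90 min, 3.39 ± 0.18 at 4 h and 3.70 ± 0.24 at 24 h. As its JS-K levels lay under 4, its falls of −1.25 ± 0.13, −1.39 ± 0.13 and −1.08 ± 0.13 (adjusted p = 9.79e-05, 1.36e-05 and 3.04e-05) are lower bounds. The 2 kinases of the route stood apart from these. MVK, mevalonate kinase, had wider groups, 7.10 ± 0.37 in vehicle, 6.60 ± 0.25 at 90 min, 5.88 ± 0.47 at 4 h and 6.83 ± 0.19 at 24 h. MVK passed at 4 h (−1.22 ± 0.24, adjusted p = 0.00292) and not at 90 min (−0.50 ± 0.24, adjusted p = 0.31) or 24 h (−0.27 ± 0.24, adjusted p = 0.35). PMVK, phosphomevalonate kinase, averaged 9.38 ± 0.05 in vehicle, 9.50 ± 0.08 at 90 min, 9.18 ± 0.26 at 4 h and 9.04 ± 0.07 at 24 h. It gave 0.11 ± 0.11 at 90 min (adjusted p = 0.833) and −0.21 ± 0.11 at 4 h (adjusted p = 0.119) and was lower at 24 h (−0.35 ± 0.11, adjusted p = 0.0239). The 24 h call of PMVK ended without vehicle replicate 2 or 3 or 24 h replicate 2 or 3 (adjusted p up to 0.0787), and at 4 h PMVK was called lower without 4 h replicate 1 (−0.32, adjusted p = 0.032).

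In the steps from squalene to lanosterol both measured genes fell. SQLE, squalene epoxidase, an oxygen-requiring step, had levels of 11.54, 11.54 and 11.53 in vehicle, 10.88, 10.85 and 10.80 at 90 min, 10.58, 10.46 and 10.35 at 4 h and 11.44, 11.34 and 11.29 at 24 h. The vehicle arrays of SQLE lay close together, the 4 h arrays were lowest, and the 24 h arrays came close to vehicle without reaching it. SQLE fell, with differences from vehicle of −0.70 ± 0.06 at 90 min and −1.08 ± 0.06 at 4 h (adjusted p = 2.53e-05 and 2.51e-07). At 24 h it gave −0.18 ± 0.06 (adjusted p = 0.0405), a call that ended when any 1 of vehicle replicates 1, 2 and 3 and 24 h replicates 2 and 3 was left out and after quantile normalization (adjusted p up to 0.198). LSS, lanosterol synthase, averaged 10.24 ± 0.02 in vehicle, 8.97 ± 0.03 at 90 min, 8.71 ± 0.18 at 4 h and 9.24 ± 0.11 at 24 h. LSS was lower, with differences from vehicle of −1.28 ± 0.09, −1.53 ± 0.09 and −0.997 ± 0.09 at 90 min, 4 h and 24 h (adjusted p = 3.08e-06, 2.51e-07 and 1.8e-06).

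The late sterol enzymes differed among themselves. MSMO1, the methylsterol oxidase, had levels of 11.25, 11.28 and 11.30 in vehicle, 9.75, 9.81 and 9.78 at 90 min, 8.92, 9.16 and 8.97 at 4 h and 10.75, 10.73 and 10.76 at 24 h. The arrays of each group lay close together and no groups overlapped, with 4 h lowest, then 90 min, 24 h and vehicle. MSMO1 fell, with differences from vehicle of −1.49 ± 0.06 at 90 min and −2.26 ± 0.06 at 4 h and was still lower at 24 h (−0.53 ± 0.06, adjusted p = 3.85e-08, 5.96e-10 and 2.37e-05). Between 4 h and 24 h it rose by 1.73 ± 0.06 (adjusted p = 5.07e-09), the largest of the 19 rises among the 31 genes in that comparison, where 12.8% of all genes rose. DHCR7, the reductase of the last step, had levels of 9.61, 9.89 and 9.73 in vehicle, 8.22, 8.10 and 8.22 at 90 min, 8.40, 8.07 and 8.28 at 4 h and 8.43, 8.44 and 8.44 at 24 h. All JS-K arrays lay far below vehicle, and the 3 differences were −1.56 ± 0.10, −1.49 ± 0.10 and −1.30 ± 0.10 (adjusted p = 1.1e-06, 5.33e-07 and 3.25e-07). Unlike that of MSMO1, the 24 h level of DHCR7 was not called against 4 h (0.19 ± 0.10, adjusted p = 0.232).

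SC5D, a sterol desaturase, averaged 9.77 ± 0.03 in vehicle, 9.30 ± 0.06 at 90 min, 8.95 ± 0.17 at 4 h and 9.39 ± 0.12 at 24 h. It fell at each time, with differences of −0.47 ± 0.09, −0.82 ± 0.09 and −0.38 ± 0.09 (adjusted p = 0.00546, 3.9e-05 and 0.00485). NSDHL, a sterol dehydrogenase, averaged 9.40 ± 0.08 in vehicle, 8.91 ± 0.06 at 90 min, 8.02 ± 0.36 at 4 h and 8.30 ± 0.22 at 24 h. NSDHL passed at 4 h (−1.38 ± 0.16, adjusted p = 5.2e-05) and 24 h (−1.10 ± 0.16, adjusted p = 0.000104), while at 90 min it gave −0.49 ± 0.16 (adjusted p = 0.0751) with all 3 arrays below vehicle. With the replicate number as a block that difference passed (adjusted p = 0.0418). EBP, the sterol isomerase, had levels of 11.25, 11.42 and 11.31 in vehicle, 11.20, 11.10 and 10.96 at 90 min, 11.04, 11.05 and 11.06 at 4 h and 11.87, 11.79 and 11.63 at 24 h. Every 24 h array of EBP was above, and every 4 h array below, the vehicle arrays. EBP was lower at 4 h (−0.28 ± 0.08, adjusted p = 0.0187) and higher at 24 h (0.44 ± 0.08, adjusted p = 0.000506). The first call ended without vehicle replicate 2 (adjusted p = 0.0656), at 90 min EBP was called lower without 90 min replicate 1 (−0.30, adjusted p = 0.049), and the 24 h rise was 0.13 over the mean of its 4 probe sets (adjusted p = 0.33). TM7SF2, a sterol reductase, was under 4 in all groups, with means of 3.20 ± 0.18 in vehicle, 2.54 ± 0.19 at 90 min, 2.48 ± 0.04 at 4 h and 2.46 ± 0.01 at 24 h. Its differences of −0.66 ± 0.09, −0.72 ± 0.09 and −0.74 ± 0.09 passed the test but lie within low signal and give no size. HSD17B7, a ketosteroid reductase, averaged 3.32 ± 0.03 in vehicle, 3.33 ± 0.03 at 90 min, 3.41 ± 0.07 at 4 h and 3.55 ± 0.17 at 24 h, also in low signal, and did not pass (adjusted p = 0.962, 0.347 and 0.0539).

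Most genes of the fatty acid branch also fell at 90 min. SCD, the desaturase that makes oleic acid, had levels of 12.65, 12.91 and 12.75 in vehicle, 11.43, 11.51 and 11.57 at 90 min, 11.18, 11.01 and 11.07 at 4 h and 11.93, 11.89 and 11.90 at 24 h. Each 4 h array was below each 90 min array, and the 24 h arrays lay close together between 90 min and vehicle. SCD fell, with differences from vehicle of −1.27 ± 0.07 at 90 min, −1.68 ± 0.07 at 4 h and −0.86 ± 0.07 at 24 h (adjusted p = 3.24e-07, 9.51e-09 and 5.86e-07). FADS2, the desaturase of polyunsaturated fatty acids, averaged 8.97 ± 0.15 in vehicle, 7.78 ± 0.11 at 90 min, 7.34 ± 0.33 at 4 h and 8.22 ± 0.14 at 24 h. FADS2 was lower, with differences from vehicle of −1.19 ± 0.15, −1.64 ± 0.15 and −0.76 ± 0.15 (adjusted p = 0.000345, 9.97e-06 and 0.00151). ACSS2, which makes acetyl-CoA from acetate, had levels of 8.05, 8.12 and 8.45 in vehicle, 7.07, 6.93 and 6.96 at 90 min, 7.08, 6.51 and 7.03 at 4 h and 7.96, 8.12 and 8.08 at 24 h. The 90 min and 4 h arrays were all below vehicle and the 24 h arrays overlapped with it. Its differences were −1.22 ± 0.15 at 90 min, −1.34 ± 0.15 at 4 h and −0.16 ± 0.15 at 24 h (adjusted p = 0.000288, 5.2e-05 and 0.373).

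FASN and ACACA, the core of fatty acid synthesis, had no called rise from 4 h to 24 h, unlike SCD, FADS2 and ACSS2. Among the genes that had fallen at 4 h, ACLY, ACAT2, DHCR7, NSDHL, MVD and TM7SF2 had none either. ACACA encodes the carboxylase that makes malonyl-CoA. Its levels were 9.10, 9.10 and 9.15 in vehicle, 7.95, 8.05 and 8.38 at 90 min, 7.31, 6.76 and 7.54 at 4 h and 7.29, 6.85 and 7.12 at 24 h. The 24 h arrays lay in the range of the 4 h arrays, of which replicate 2 was lowest, and both were below 90 min and vehicle. ACACA fell, with differences from vehicle of −0.99 ± 0.18 at 90 min, −1.91 ± 0.18 at 4 h and −2.03 ± 0.18 at 24 h (adjusted p = 0.00467, 1.4e-05 and 2e-06), a level 4.08-fold lower at 24 h. The other ACACA probe set, with a mean of 4.93, was not called at any time. It gave −0.16, −0.13 and −0.21 (limma's adjusted p over all probe sets = 0.722, 0.329 and 0.144), so the fall of ACACA rests on the probe set used. FASN, fatty acid synthase, had levels of 8.66, 8.70 and 8.74 in vehicle, 7.28, 7.59 and 7.58 at 90 min, 7.59, 6.47 and 7.08 at 4 h and 6.40, 6.67 and 6.48 at 24 h. The 4 h arrays were spread widely, from the 24 h range to the 90 min range, with replicate 2 lowest. FASN fell, with differences from vehicle of −1.22 ± 0.22, −1.65 ± 0.22 and −2.18 ± 0.22 (adjusted p = 0.00347, 0.000153 and 4.31e-06), a level 4.54-fold lower at 24 h. On the probe sets used, this was the largest fall of the 31 genes at that time. Some other probe sets fell further at 24 h, as for HMGCS1 (−2.83), SCD (−2.62) and INSIG1 (−2.32). The other FASN probe set, in low signal with a mean of 2.94, gave 0.03 at 24 h. From 4 h to 24 h FASN gave −0.53 ± 0.22 (adjusted p = 0.114), and −0.82 without 4 h replicate 2 (adjusted p = 0.00248). Against 90 min both were lower at 24 h, with a difference of −0.97 ± 0.22 for FASN and −1.04 ± 0.18 for ACACA (adjusted p = 0.00375 and 0.00068). ACLY, which makes acetyl-CoA from citrate for both branches, averaged 11.54 ± 0.03 in vehicle, 11.15 ± 0.04 at 90 min, 11.05 ± 0.08 at 4 h and 10.96 ± 0.06 at 24 h. It was lower at each time (−0.40 ± 0.06, −0.49 ± 0.06 and −0.59 ± 0.06, adjusted p = 0.000677, 5.11e-05 and 2.75e-06). LPIN1, a phosphatidate phosphatase of triglyceride synthesis, had levels of 8.69, 8.75 and 8.80 in vehicle, 8.34, 8.20 and 8.13 at 90 min, 8.63, 8.44 and 8.49 at 4 h and 9.17, 9.05 and 9.01 at 24 h. All 90 min and 4 h arrays were below vehicle and all 24 h arrays above it. LPIN1 fell at 90 min (−0.52 ± 0.08, adjusted p = 0.00176) and rose at 24 h (0.33 ± 0.08, adjusted p = 0.00734). Its 4 h difference (−0.23 ± 0.08, adjusted p = 0.0481) did not pass when any 1 of vehicle replicates 1, 2 and 3 and 4 h replicates 2 and 3 was left out, and was −0.08 after quantile normalization. With array medians subtracted the 24 h rise did not pass (0.24, adjusted p = 0.105). ELOVL6, a fatty acid elongase, averaged 2.65 ± 0.03 in vehicle, 2.66 ± 0.04 at 90 min, 2.75 ± 0.08 at 4 h and 2.72 ± 0.01 at 24 h, in low signal, and did not pass at any time (adjusted p = 0.932, 0.0716 and 0.164).

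**Figure D3:**
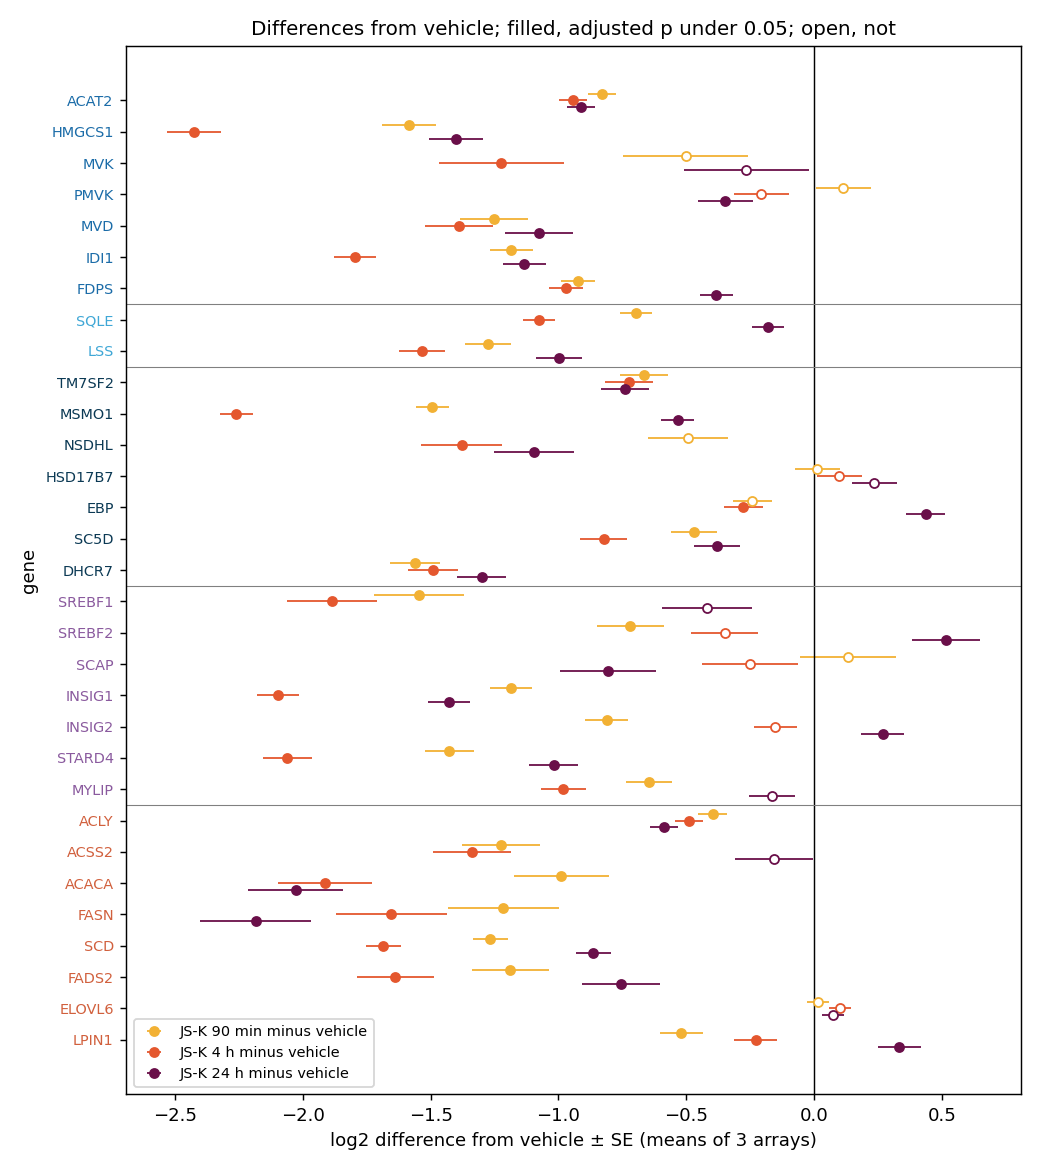
Log2 difference of each JS-K group from vehicle ± SE (means of 3 arrays) for the 31 genes in rows by role, with filled points where the adjusted p was under 0.05. The 24 h points lie to the right of the 4 h points for most sterol genes and for SCD, FADS2 and ACSS2, and to the left for FASN, ACACA and ACLY.

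The sterol branch had a median difference of −0.76 at 90 min, −1.15 at 4 h and −0.64 at 24 h, with 11, 14 and 13 of 16 genes lower and 0, 0 and 1 higher. The fatty acid branch had −1.09, −1.49 and −0.67, with 7, 7 and 5 of 8 genes lower and 0, 0 and 1 higher. Control and sterol handling genes had medians of −0.81, −0.98 and −0.42, with 6, 4 and 3 of 7 lower and 0, 0 and 2 higher. Of all genes, 5.62%, 16.6% and 18.9% were lower and 4.03%, 23.9% and 17.8% higher at these times. At 90 min the fatty acid median lay below the sterol median, but above it with the mean of probe sets. That mean takes in probe sets of low signal, among them the other ones of FASN and FADS2 (mean of 2.94 each). Their part in the medians was not tested. The counts and medians of the branches were not tested against each other.

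Of the 31 genes, 19 rose from 4 h to 24 h and none fell (12.8% and 10.7% of all genes, 23.5% in either direction). By limma's unadjusted p under 0.05, 20 rose and 2 fell, where 3199 and 2586 of all 19775 genes did. The 19 rises were 9 of 16 in the sterol branch, 6 of 7 among the control and handling genes and 4 of 8 in the fatty acid branch. With the mean of probe sets 16 rose, as the calls of IDI1 (0.17, adjusted p = 0.445), LSS (0.25, adjusted p = 0.111) and SC5D (0.22, adjusted p = 0.227) ended. For each of these genes that mean takes in a probe set with a mean level under 4. Without 4 h replicate 2, the count of falls was 3 (PMVK, SCAP and FASN). Among the 25 genes that had fallen at 4 h, the share of the fall made up by 24 h can be read as a description. It was 83.2% for SQLE, 76.4% for MSMO1, 77.7% for SREBF1 and 88.2% for ACSS2. It was lower for HMGCS1 (42.2%), IDI1 (36.9%), LSS (35.1%) and INSIG1 (31.9%). These shares are those of the probe set used. On the other HMGCS1 probe set the difference from vehicle was −3.60 at 4 h and −2.83 at 24 h, and on the other LSS probe set with a mean of at least 4 it was −2.18 and −1.99. For DHCR7 (12.7%), ACAT2 (3.26%), NSDHL (20.5%) and MVD (22.5%) the change between the times did not pass the test. For ACACA (−6%), ACLY (−20.1%) and FASN (−32.1%) the share was negative, and the change did not pass either. From 90 min to 4 h, 11 of the 31 genes fell and 2 rose (7.25% and 3.33% of all genes, 10.6% in either direction). The falls included HMGCS1 (−0.84 ± 0.11), INSIG1 (−0.91 ± 0.08), NSDHL (−0.89 ± 0.16) and ACACA (−0.92 ± 0.18), and the rises were INSIG2 and LPIN1 (0.29 ± 0.08, adjusted p = 0.0452). The LPIN1 call ended when 90 min replicate 2 or 3 or 4 h replicate 1 or 3 was left out, and without 4 h replicate 1 the count of falls was 16.

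Probe sets of one gene differed in the size of the change. For 20 of the 31 genes there were further probe sets, 40 in all, of which 29 had a mean of at least 4. At 90 min all 29 had a negative difference from vehicle and 17 were called lower, at 4 h 29 and 23, and at 24 h 20 and 18, with no other probe set called against its gene at any time. For INSIG1 the difference at 4 h was −2.10 on the probe set used and −2.95 and −2.97 on the other 2. For SCD it was −1.68 on the probe set used, against −2.56 to −3.28 on the other 3, and for HMGCS1 −2.42 against −3.60. SQLE at 24 h gave −0.18 on the probe set used and between −0.76 and 0.07 on the others. Sizes given for a gene are those of the probe set used.

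**Figure D4:**
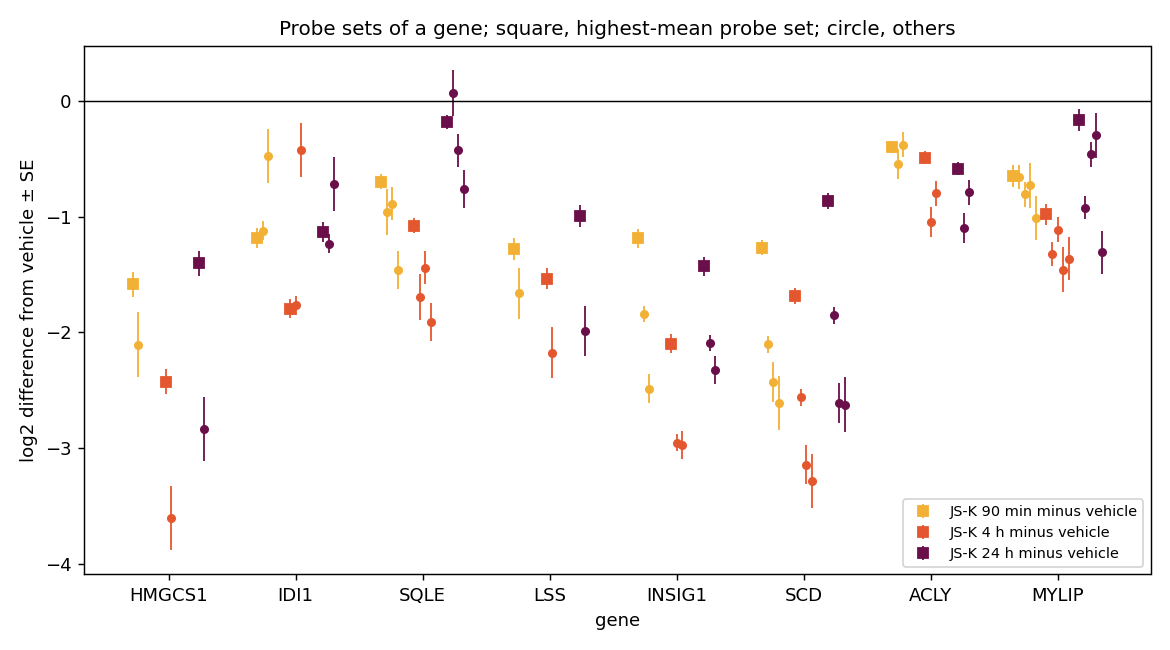
Log2 difference from vehicle ± SE at the 3 times for every probe set with a mean of at least 4 of 8 genes, with the probe set used as a square and the others as circles. The squares of INSIG1, SCD, LSS and HMGCS1 lie above their circles, so the probe set with the highest mean gave the smallest fall in these genes.

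Other genes of the pathway, from lists drawn up for the purpose, moved in both directions. Their counts stand beside shares of all genes of 5.62% lower and 4.03% higher at 90 min, 16.6% and 23.9% at 4 h, and 18.9% and 17.8% at 24 h. Of 9 measured genes of SREBP processing and sterol-regulated turnover, 4 fell and 1 rose at 90 min, 5 fell at 4 h, and 4 fell and 1 rose at 24 h. TMEM97, a sterol-binding membrane protein gene, fell (−0.76 ± 0.11, −1.73 ± 0.11 and −2.59 ± 0.11 at 90 min, 4 h and 24 h). RNF145, a ubiquitin ligase of the endoplasmic reticulum, gave −1.16 ± 0.07, −1.04 ± 0.07 and −0.28 ± 0.07, all called. MBTPS2, a protease that releases SREBP, was lower at 90 min (−0.46 ± 0.08) and 4 h (−0.81 ± 0.08), and ERLIN1, of an INSIG-binding complex, at all times, with −1.46 ± 0.06 at 24 h. SPRING1, a factor needed for SREBP processing, was higher at 90 min (0.39 ± 0.08) and 24 h (0.62 ± 0.08).

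Of 11 measured genes of sterol export, storage and traffic, 2 rose and 1 fell at 90 min, 3 rose and 2 fell at 4 h, and 3 rose and 2 fell at 24 h. At 4 h and for the falls at 24 h these counts are near the shares of all genes (16.6% lower and 23.9% higher at 4 h, 18.9% lower at 24 h). NCEH1, a cholesterol ester hydrolase, rose by 1.38 ± 0.11, 1.45 ± 0.11 and 2.11 ± 0.11. NPC1, the lysosomal cholesterol exporter, rose by 0.29 ± 0.07, 0.71 ± 0.07 and 0.52 ± 0.07. LIPA, the lysosomal acid lipase, fell at each time (−0.62 ± 0.08, −0.71 ± 0.08 and −0.82 ± 0.08), and SOAT1, which esterifies cholesterol for storage, was lower at 4 h (−0.58 ± 0.10) and 24 h (−0.84 ± 0.10).

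Of 10 other isoprenoid and sterol enzymes, 1, 5 and 6 fell and 2 rose at each time. The fall at 90 min and the rises at 4 h and 24 h are near the shares of all genes (5.62% lower, 23.9% and 17.8% higher). ERG28, a scaffold of the late sterol enzymes, was lower at each time (−1.08 ± 0.09, −1.14 ± 0.09 and −0.92 ± 0.09). PDSS1, which makes the side chain of coenzyme Q, was lower at 4 h (−0.44 ± 0.15) and 24 h (−2.18 ± 0.15), and LBR, a sterol reductase of the nuclear envelope, was higher at the same times (0.35 ± 0.07 and 0.64 ± 0.07). Of 15 other genes of fatty acid and glycerolipid synthesis, 1, 5 and 5 fell and 1, 2 and 1 rose, where 5.62%, 16.6% and 18.9% of all genes fell and 4.03%, 23.9% and 17.8% rose, so the counts at 90 min are near those of all genes. MID1IP1, an activator of acetyl-CoA carboxylase, fell at each time (−1.14 ± 0.09, −1.67 ± 0.09 and −1.09 ± 0.09), while ACSL1, an acyl-CoA synthetase, rose at each (0.79 ± 0.07, 1.05 ± 0.07 and 0.58 ± 0.07). Of 11 genes of the opposite route, fatty acid oxidation, 3, 5 and 4 fell and none rose, beside the same shares of all genes. By limma's unadjusted p under 0.05 none of the 11 rose either, where 1510, 7996 and 6205 of all 19775 genes did. The medians of the 11 genes were −0.13, −0.23 and −0.14, against 0.01, 0.06 and 0.06 for all genes. The largest fall of the 11 was that of CPT1A, the gate of fatty acid entry into mitochondria, at 24 h (−1.07 ± 0.13).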

How the data were processed

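RNA was measured on 12 Affymetrix arrays of 54675 probe sets, after labelling from random primers, per the labels' protocols. Per the submitters' processing notes, the authors made the deposited log2 values with GCRMA in Affymetrix Expression Console, and no values were normalized again. The metabolite measurements of the study were not analysed here. Probe sets with 1 symbol (41097) gave 19775 genes, each by its highest-mean probe set. Groups were compared with limma 3.58.1 in R 4.3.3 (1 mean per group, all 12 arrays, eBayes with trend), with Benjamini-Hochberg adjustment over all genes. The fit was tested on simulated data. Alternatives covered filters, probe-set choice, scaling, spread, weights and left-out arrays. Genes were named by membership, and other genes from the lists. The members and lists were chosen with earlier results of these data known. Promoters came from RefSeq (GRCh38.p14). Precision is limited by 3 arrays per group.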

Additional observations from a re-analysis of the deposited data

Results flagged for a closer look

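For 4 of the genes the call against vehicle pointed one way early and the other way at 24 h, and the difference between the times, tested in the same limma fit, also passed. EBP was lower than vehicle at 4 h and higher at 24 h, and its 24 h level exceeded its 4 h level by 0.71. SREBF2 was lower at 90 min and higher at 24 h, with 24 h above 90 min by 1.23. INSIG2 took the same course, with 24 h above 90 min by 1.08. LPIN1 was lower at 90 min and 4 h and higher at 24 h, and its 24 h level exceeded that at 4 h by 0.56 and that at 90 min by 0.85. The vehicle arrays are shared by these comparisons, and the share of all genes with such a turn was not taken. Of all genes, 17.8% were higher than vehicle at 24 h, beside these 4 of the 31 members. The 24 h rise over vehicle was lost in some alternatives for EBP (adjusted p = 0.33), LPIN1 (up to 0.155) and INSIG2 (up to 0.174). On the other probe sets of SREBF2 the 24 h difference was 0.18 and 0.58 and was not called (limma's adjusted p = 0.397 and 0.051). An EBP probe set of nearly the same mean as that used (11.26) gave 0.03 at 24 h (adjusted p = 0.789).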

How the results depend on the processing

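Of 261 recomputed counts and branch medians, 29 moved and none changed sign; all 24 calls at 90 min held in the 14 alternatives. At 90 min the sterol median was −0.83 without the dimmest genes and −0.85 with the mean of probe sets, which gave a fatty acid median of −0.59. The mean of probe sets takes in those of low signal. At 4 h the mean of probe sets gave a fatty acid median of −0.79, and array weights gave 2 higher members and a sterol median of −0.96. At 24 h the fatty acid median was −0.81 without ACLY and ACSS2. The 24 h sterol median was −0.53 without the dimmest genes, −0.73 with array medians subtracted (2 higher members), −0.63 after quantile normalization and −0.69 with array weights. At 4 h against 90 min, 1 member was higher with the mean of probe sets, with array medians subtracted or with 6 arrays alone, and 5 with array weights. At 24 h against 4 h, 1 member was lower without the dimmest genes, 2 after quantile normalization and 5 with array weights. The weights did not converge (0.0413 for 4 h replicate 2, 29.0 for 4 h replicate 1). Leaving out 1 array at a time gave 0 to 1 higher members at 4 h, 3 to 6 at 24 h (sterol median −0.70 to −0.60), 1 to 2 at 4 h against 90 min and 0 to 3 lower at 24 h against 4 h. LSS at 24 h against 90 min reversed to −0.00067 with the mean of probe sets (adjusted p = 0.996), and SCAP at 4 h to 0.15 with array weights (adjusted p = 0.0199). The causes were not tested. Chosen after seeing the data, leaving 4 h replicate 2 out of the other comparisons gave 25 lower members at 90 min and 6 higher and 22 lower at 24 h. With the replicate number as a block, 25 members were lower and 0 higher at 90 min, 25 and 0 at 4 h, 21 and 4 at 24 h, 11 and 2 at 4 h against 90 min, 1 and 19 at 24 h against 4 h, and 7 and 13 at 24 h against 90 min. Deviations of same-numbered arrays correlated at −0.15 to 0.30 (median 0.06, 6 of 18 pairs over 0.1), against −0.31 to 0.20 for different numbers (median −0.02, 4 of 36), and 9 of 12 arrays correlated best with their own number, a hint from the data and not the design.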
